A study of Mus musculus with 6 samples.

Results

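The growth hormone and IGF axis was followed through 10 genes: Ghr, Stat5b, Bcl6, Socs2, Cish, Igf1, Igfals, Igfbp1, Igfbp2 and Igf1r. They were chosen by symbol, all 10 were found among the 32285 genes of the deposited lists, and each was read per mouse and per cell class named from marker genes. Single nuclei RNA sequencing (snRNAseq) had been run on snap-frozen livers of 6 male DIAMOND mice, a diet-induced model of fatty liver disease on a crossed 129A1/SvIm and C57BL/6J background, with 1 library per mouse and 2 mice per group. Diets began at 2 months of age in all groups. Ctrl mice received chow for 40 weeks, Pre-T mice a Western Diet (high-fat food with sugar water) for 40 weeks without a tumor, and Post-T mice the same Western Diet for 48 weeks, by when tumors had formed. The titles of the Post-T libraries name tumor whereas their tissue is given as liver, so how much tumor tissue entered them is not known, and the longer diet and the tumor cannot be told apart.

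Growth hormone from the pituitary binds its receptor on hepatocytes and activates JAK2 and STAT5B, which turn on Igf1, the acid-labile subunit Igfals and the feedback inhibitors Socs2 and Cish. IGF1 then circulates in a complex with binding proteins and the acid-labile subunit and acts on the IGF1 receptor, which adult hepatocytes hold at low levels. Because male mice release growth hormone in sharp pulses and females more evenly, the same pathway also sets which liver genes are male-biased or female-biased, with BCL6 as a male-biased repressor at STAT5 target sites.

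The libraries held 22453658 to 40307564 UMIs (unique molecular identifiers, each counting 1 captured transcript) in 41882 barcodes, of which 39012 nuclei were kept, with a median of 1623 to 2805 UMIs per nucleus. Of 38853 barcode sequences kept, 159 occurred in more than 1 library. The hepatocyte-like class held 10578 nuclei, or 2576 and 2477 in the Ctrl mice, 975 and 726 in the Pre-T mice and 2551 and 1273 in the Post-T mice. These came from separate clusters: clusters 5, 7 and 9 for Ctrl, cluster 6 for both Pre-T mice, cluster 2 for Post-T 1 and cluster 15 for Post-T 2, each carrying 3 to 6 of 10 hepatocyte markers. A difference between groups within this class is therefore also a difference between clusters, and the 2 Post-T mice stood apart from each other. A further 8228 nuclei with hepatocyte markers and a median of 949.5 UMIs were kept apart as low-depth nuclei.

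In hepatocyte-like nuclei, Igfbp2 passed the test between groups and the other 9 genes did not. It fell in Pre-T against Ctrl and was higher again in Post-T against Pre-T. With edgeR's quasi-likelihood test, adjusted over 18357 genes at 0.05 (Benjamini-Hochberg), 1 of the 10 genes was called in Pre-T against Ctrl, where 0.0763% of all genes were called (0.0436% higher and 0.0327% lower). In Post-T against Ctrl 0 of 10 were called (4 at an unadjusted p under 0.05, beside 4628 of all 18357 genes, and 4 by DESeq2), where 4.36% of all genes were (1.89% higher and 2.47% lower). In Post-T against Pre-T it was 1 of 10, where 2.41% were (0.866% higher and 1.55% lower). DESeq2 called 1, 4 and 3 of the 10, beside 6.38, 15 and 15% of the genes it tested. The median log2 fold change of the 10 genes was -0.59, -0.15 and -0.08 in these comparisons, beside 0.01, 0.00 and 0.00 over all genes tested. The mice are separate animals, but with 2 per group the p-values rest on 3 residual degrees of freedom, and complete separation of 2 groups was common. In Pre-T against Ctrl 8 of the 10 genes did not overlap between groups (2 higher and 6 lower), as did 59.8% of all genes (29.6% higher and 30.2% lower). In Post-T against Ctrl this held for 6 (2 higher and 4 lower) beside 52.1% of all genes (23.8 and 28.4%), and in Post-T against Pre-T for 7 (4 higher and 3 lower) beside 55.1% (25.7 and 29.4%).

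**Figure D1:**
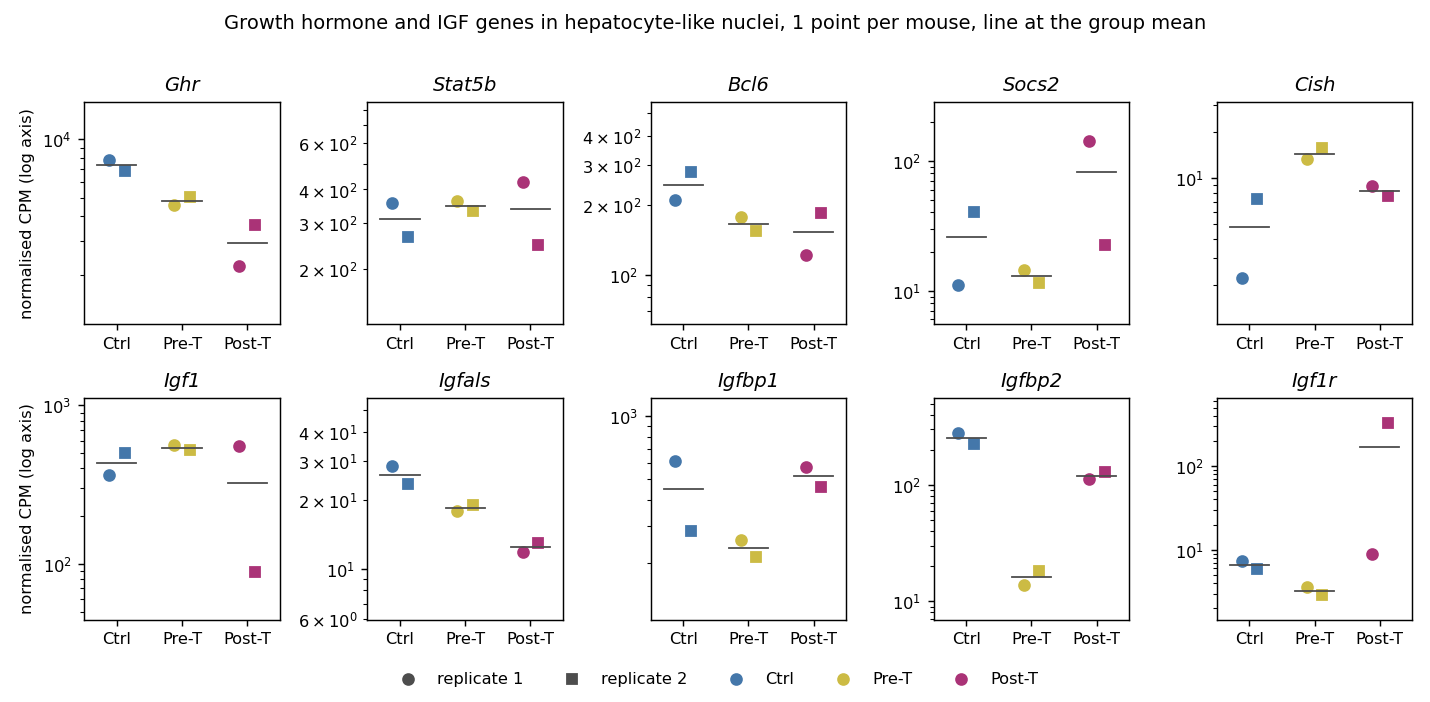
Normalised CPM (log axis) of the 10 genes in hepatocyte-like nuclei of each mouse, with circles for replicate 1, squares for replicate 2 and a line at the group mean. Igfbp2 lay between 13.8 and 18.3 in Pre-T and between 112 and 281 in the other 4 mice, and Igf1r lay at 328 in Post-T 2 and under 9.0 in the other 5.

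Ghr (chromosome 15, 3317760 to 3583492, minus strand, GRCm38) encodes the growth hormone receptor. Its level in hepatocyte-like nuclei, in UMIs of the gene scaled to a fixed total per mouse and by TMM factors (normalised CPM), was 7787 and 6886 in the Ctrl mice, 4578 and 5025 in the Pre-T mice and 2217 and 3593 in the Post-T mice. All 3 groups were apart, with Ctrl highest and Post-T lowest. The log2 fold change was -0.61 ± 0.38 (SE) in Pre-T against Ctrl (adjusted p = 0.483) and -1.34 ± 0.38 in Post-T against Ctrl (adjusted p = 0.110), and neither passed. DESeq2 called the Post-T difference (adjusted p = 0.00215). Without Post-T 2 the edgeR log2 fold change was -1.73, a value that rests on Post-T 1, the lower of the Post-T mice.

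Stat5b (chromosome 11, 100780731 to 100850724, minus strand) encodes the main transcription factor activated by the receptor. Its normalised CPM was 355 and 265 in Ctrl, 361 and 332 in Pre-T and 428 and 247 in Post-T. The range of the Post-T mice enclosed all others, and the log2 fold changes were 0.16 ± 0.33 in Pre-T against Ctrl and 0.12 ± 0.33 in Post-T against Ctrl (adjusted p = 0.847 and 0.843). Bcl6 (chromosome 16, 23965052 to 23988852, minus strand) was at 211 and 279 in Ctrl, 178 and 154 in Pre-T and 122 and 184 in Post-T. Both Ctrl mice lay above all 4 Western Diet mice, with log2 fold changes of -0.56 ± 0.29 (adjusted p = 0.411) and -0.67 ± 0.29 (adjusted p = 0.211) against Ctrl. Without Post-T 2 Post-T was 2.001-fold lower than Ctrl, a value that rests on Post-T 1, the lower of the Post-T mice.

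Socs2 (chromosome 10, 95385362 to 95417180, minus strand) and Cish (chromosome 9, 107296026 to 107302784, plus strand) encode cytokine-inducible SH2 proteins that dampen growth hormone signalling. The start of Cish is shown because it holds a pair of STAT motifs, TTCNNNGAA (its own reverse complement, searched on both strands), in capitals (RefSeq, GRCm38.p6, chr9:107296654-107296683, plus strand, 5 bases before and 25 after a start site):
Cish: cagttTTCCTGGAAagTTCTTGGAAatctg
The first match begins at the start site itself and the second at base 12. This motif was found within 250 bases before to 50 after a start site in 8.3% of 32851 RefSeq windows. It was found in 5 of the 15 windows of the 9 axis genes (of 10) that have one, those of Bcl6, Cish and Igfals. A match is a description of the letters and not evidence of binding.

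Cish was at 2.23 and 7.32 normalised CPM in hepatocyte-like nuclei of Ctrl, 13.3 and 15.7 in Pre-T and 8.88 and 7.67 in Post-T. The 2 Pre-T mice were the highest and Ctrl 1 stood lowest, from 29 to 119 UMIs per mouse. The log2 fold change in Pre-T against Ctrl was 1.60 ± 0.55 (adjusted p = 0.273). Socs2 was at 11.02 and 40.6 in Ctrl, 14.3 and 11.4 in Pre-T and 142 and 22.6 in Post-T. Post-T 1 exceeded every other mouse and Post-T 2 lay within the Ctrl range, and the log2 fold change in Post-T against Pre-T was 2.67 ± 0.97 (adjusted p = 0.170). Without Post-T 2 it was 3.46, a value that rests on Post-T 1, the higher of the Post-T mice. DESeq2 on all 6 mice gave an adjusted p of 0.0159.

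Igf1 (chromosome 10, 87858265 to 87937042, plus strand) encodes the growth factor itself. In hepatocyte-like nuclei it was at 364 and 504 normalised CPM in Ctrl, 559 and 523 in Pre-T and 556 and 88.7 in Post-T. Post-T 2 was far below the other 5 mice, and a UMI of Igf1 was found in 22.2% of its nuclei (median 9288 UMIs) beside 51.2 to 92.0% in the others. The log2 fold change in Post-T against Ctrl was -0.43 ± 0.76 (adjusted p = 0.756). With Post-T 2 as the only mouse of its group the value fell to -2.28, and with Post-T 1 as the only one it rose to 0.36. The direction of Igf1 thus turned on which Post-T mouse was kept.

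Igfals (chromosome 17, 24865997 to 24882010, plus strand) encodes the acid-labile subunit that extends the life of IGF1 in blood. A STAT motif lies upstream of its RefSeq start site (GRCm38.p6, chr17:24878081-24878230, plus strand, the 150 bases before the start, motif in capitals and beginning 58 bases before it):
Igfals: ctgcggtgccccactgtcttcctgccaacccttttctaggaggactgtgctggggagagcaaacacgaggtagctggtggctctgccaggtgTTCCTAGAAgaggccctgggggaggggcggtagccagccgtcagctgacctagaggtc
Its normalised CPM was 28.4 and 23.5 in Ctrl, 18.0 and 19.2 in Pre-T and 11.9 and 12.9 in Post-T. The 3 groups did not overlap and stood in the same order as for Ghr. In Post-T against Ctrl the log2 fold change was -1.07 ± 0.22 (adjusted p = 0.0571), which did not pass. It passed by DESeq2 (adjusted p = 0.0127). With Post-T 2 alone in its group edgeR gave -0.99, and with Post-T 1 alone -1.13. Each of these fits rests on 1 Post-T mouse.

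Igfbp1 (chromosome 11, 7197782 to 7202546, plus strand) encodes an IGF binding protein that insulin represses in liver through FOXO1. Its upstream region is shown for the letters CAAAACA, the core of the insulin response sequence, found on either strand in 6.28% of RefSeq windows (GRCm38.p6, chr11:7197637-7197786, plus strand, the 150 bases before the start, with the match in capitals 108 bases before it):
Igfbp1: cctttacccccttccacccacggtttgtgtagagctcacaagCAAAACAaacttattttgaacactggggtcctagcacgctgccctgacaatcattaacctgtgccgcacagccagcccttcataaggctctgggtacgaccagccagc
Its level was 612 and 285 normalised CPM in Ctrl, 258 and 214 in Pre-T and 575 and 461 in Post-T. Pre-T was below both other groups, and Ctrl 1 lay above Post-T while Ctrl 2 lay below it. The log2 fold change was -0.93 ± 0.40 in Pre-T against Ctrl (adjusted p = 0.3499) and 1.13 ± 0.40 in Post-T against Pre-T (adjusted p = 0.162).

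Igfbp2 (chromosome 1, 72824503 to 72852474, plus strand) encodes a binding protein made by hepatocytes that leptin induces. The bases before its start are shown because this was the gene called. They hold 3 GC boxes, GGGCGG, in capitals (GRCm38.p6, chr1:72824360-72824479, plus strand, 120 bases before the RefSeq start site, matches beginning 113, 98 and 37 bases before it). GC boxes are the binding letters of SP1-type factors. On either strand they were found in 35.7% of all windows and in 8 of the 15 windows of axis genes. These belong to 7 of the 9 axis genes with a window, and a gene can have more than 1.
Igfbp2: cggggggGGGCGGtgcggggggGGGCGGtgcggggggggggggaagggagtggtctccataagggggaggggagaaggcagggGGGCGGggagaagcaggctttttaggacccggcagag

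In hepatocyte-like nuclei Igfbp2 was at 281 and 223 normalised CPM in Ctrl, 13.8 and 18.3 in Pre-T and 112 and 128 in Post-T. The 3 groups did not overlap, with Pre-T far below the other 4 mice. Against Ctrl, Igfbp2 in Pre-T was 15.7-fold lower (log2 fold change -3.97 ± 0.28, edgeR adjusted p = 0.0355). It was 7.45-fold higher in Post-T than in Pre-T (2.90 ± 0.26, adjusted p = 0.0237), and its difference of -1.07 ± 0.25 in Post-T against Ctrl did not pass (adjusted p = 0.0699). Leaving out any 1 of the Ctrl and Pre-T mice gave -3.75 to -4.21 in Pre-T against Ctrl and 2.69 to 3.14 in Post-T against Pre-T. Neither call was kept in those fits. They leave 1 mouse in a group. The loss was not particular to Igfbp2, and its cause was not tested.

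A UMI of Igfbp2 was found in 51.4 and 38.2% of hepatocyte-like nuclei in Ctrl, 7.28 and 12.9% in Pre-T and 21.4 and 42.7% in Post-T, at a median depth of 1978 to 9288 UMIs. In T/NK-like nuclei, which should lack it, the shares were 15.4 and 9.64%, 1.36 and 2.64%, and 7.78 and 8.70% at a median of 1236 to 1497 UMIs. After thinning each nucleus to 500 UMIs the hepatocyte-like shares were 11.1 and 7.63% in Ctrl, 0.615 and 0.964% in Pre-T and 4.43 and 3.77% in Post-T, so the order of the groups was kept at equal depth. In low-depth nuclei it was at 277 and 250 CPM in Ctrl, 21.1 and 37.6 in Pre-T and 155 in Post-T 2, whereas the 115 of Post-T 1 came from 4 UMIs in 25 nuclei. Of 2 unnamed clusters of deep nuclei, the 831 nuclei of Pre-T 1 in the first held Igfbp2 at 1.27 CPM and Igf1 at 34.3, and the 644 nuclei of Post-T 1 in the second held them at 19.6 and 38.5. Adding both clusters to the class gave an Igfbp2 log2 fold change of -4.32 in Pre-T against Ctrl, and both Igfbp2 calls were lost (adjusted p = 0.127, and 0.0928 in Post-T against Pre-T). Both were also lost with each nucleus named on its own from its marker scores (adjusted p = 0.0753 and 0.0920).

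Igf1r (chromosome 7, 67952827 to 68233668, plus strand) encodes the IGF1 receptor. In hepatocyte-like nuclei it was at 7.40 and 5.83 normalised CPM in Ctrl, 3.57 and 2.92 in Pre-T and 8.98 and 328 in Post-T. The value of Post-T 2 came from 3507 UMIs in 63.5% of its nuclei (exact 95% binomial interval 60.8 to 66.1%, counting error only), whereas the other 5 mice had 21 to 96 UMIs in 1.95 to 3.42% of theirs. Thinned to 500 UMIs the share in Post-T 2 was 12.02%, beside 0.103 to 1.41% in the others. The log2 fold change in Post-T against Ctrl was 4.67 ± 1.47 and did not pass (adjusted p = 0.128), whereas DESeq2 called it (adjusted p = 0.0210). Fitted with Post-T 1 alone in its group it was 0.44, and with Post-T 2 alone 5.64. Other genes of the IGF pathway stood out in the same library, chosen here after their values were seen: Grb10, an adaptor that inhibits insulin and IGF1 receptors, was at 416 normalised CPM in Post-T 2 and 1.45 to 8.51 in the other mice, and H19, an imprinted RNA next to Igf2, was at 130 beside 0 to 2.52. None of the 3 was called by edgeR on all 6 mice in any comparison.

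Outside hepatocyte-like nuclei, plain CPM per class was set beside the level that hepatocyte free RNA would give, computed per mouse from 8 abundant hepatocyte transcripts. Ghr and Igfbp1 were at or under this level in every mouse of the endothelial-like, fibroblast-like, macrophage-like, monocyte-like, T/NK-like and cholangiocyte-like classes, at 0.117 to 0.920 times for Ghr. With the ratio taken from low-depth nuclei instead, the median over mice was 0.844 to 1.27 times in these classes, and single mice reached 4.53 times in fibroblast-like nuclei.

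Igf1r stood far above that level in several classes. In endothelial-like nuclei it was at 219 and 263 CPM in Ctrl, 386 and 324 in Pre-T and 413 and 504 in Post-T, and in fibroblast-like nuclei at 421 and 391, 304 and 311, and 549 and 312. These values were 39.0 to 165 times the free RNA level in the 5 mice other than Post-T 2, where the expected level was itself raised and the values were 1.35 and 0.929 times it. With each nucleus named on its own the fibroblast-like value of Post-T 1 was 225 in place of 549. Cholangiocyte-like nuclei held 198 to 525 CPM in 5 mice and mesothelial-like nuclei 385 to 549 in 3, so the ranges of these 4 classes overlapped. Macrophage-like nuclei lay lower, at 19.1 to 62.8 CPM in 5 mice and 142 in Post-T 2.

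Igf1r rose in endothelial-like nuclei in Post-T against Ctrl, from a normalised CPM of 230 and 257 to 422 and 620 (log2 fold change 1.10 ± 0.24, edgeR adjusted p = 0.0339), with Pre-T between them at 318 and 306. The part of hepatocyte free RNA in the value of Post-T 2 was not tested. Leaving out 1 mouse gave 0.80 to 1.37. The call was lost in most of those fits, which leave 1 mouse in a group. Ghr (-2.17 ± 0.26, adjusted p = 0.00492) and Bcl6 (-1.67 ± 0.27, adjusted p = 0.0129) fell in the same comparison. Their levels were 0.194 to 0.680 and at most 0.641 times the free RNA level, and the part of free RNA in these falls was not tested. Ghr lost its call without Pre-T 1 (adjusted p = 0.0580) and Bcl6 without Ctrl 2, either Pre-T mouse or Post-T 2 (0.0659 to 0.0817). In all, 3 of the 10 genes were called in endothelial-like nuclei in Post-T against Ctrl, where 7.73% of all genes were. For Pre-T with Ctrl and for Post-T with Pre-T edgeR called 0 of 10 (4 and 5 at an unadjusted p under 0.05, 2 and 2 by DESeq2), where 0.226 and 3.02% of all genes were called. Over all genes, 2586 and 3686 of 19040 had an unadjusted p under 0.05, and DESeq2 called 385 of 12395 and 945 of 13134.

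In macrophage-like nuclei Igf1 was at 764 and 852 normalised CPM in Ctrl, 457 and 476 in Pre-T and 114 and 270 in Post-T. The groups did not overlap, and Igf1 fell 4.23-fold in Post-T against Ctrl (log2 fold change -2.08 ± 0.41, adjusted p = 0.0217). Without 1 of the Ctrl or Pre-T mice the log2 fold change was -1.997 to -2.138. The call was not kept in those fits, which leave 1 mouse in a group. Beside free RNA the macrophage-like level of Igf1 was 2.71 and 2.10 times in Ctrl, 1.54 and 0.755 times in Pre-T and 0.389 and 2.81 times in Post-T, and with the ratio of low-depth nuclei 1.16 to 9.93 times. With each nucleus named on its own, plain CPM of Igf1 was 610 and 749 in Ctrl, 633 and 632 in Pre-T and 125 and 214 in Post-T, so Pre-T then lay within the Ctrl range and Post-T below it. The class was made of different clusters: cluster 17, whose leading genes included the Kupffer cell genes Clec4f, Timd4 and Vsig4, held 228 and 211 of the Ctrl nuclei and 15 and 3 of the Post-T nuclei, cluster 18 held 483 of the 535 nuclei of Post-T 1, and cluster 11 held 381 of the 389 of Post-T 2. The edgeR calls in this class were 1 of 10 in Pre-T against Ctrl (1.68% of all genes), 2 in Post-T against Ctrl (5.42%) and 0 in Post-T against Pre-T (0.0159%, with 5 at an unadjusted p under 0.05 and 0 by DESeq2). Of all 18814 genes, 2206 had an unadjusted p under 0.05 in Post-T against Pre-T, and DESeq2 called 205 of 12613.

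The other calls in these classes were of genes at or under the free RNA level. Igfbp2 fell in Pre-T against Ctrl in macrophage-like (-4.01 ± 0.75, adjusted p = 0.0421) and fibroblast-like nuclei (-3.68 ± 0.46, adjusted p = 0.00130), and stood at 0.553 to 0.981 times the free RNA level in the Ctrl and Pre-T mice. Ghr fell in fibroblast-like nuclei in Pre-T and Post-T against Ctrl (-1.33 ± 0.28 and -1.68 ± 0.29, adjusted p = 0.0199 and 0.00680) and in macrophage-like nuclei in Post-T (-3.28 ± 0.46, adjusted p = 0.00584). These falls had the same direction as in hepatocyte-like nuclei of the same mice, whose part in them was not tested. Mean normalised CPM of Ghr in Ctrl, Pre-T and Post-T was 7337, 4801 and 2905 in hepatocyte-like nuclei. It fell more steeply in fibroblast-like (3268, 1302 and 1017) and macrophage-like nuclei (3551, 965 and 367). Leaving out any 1 Ctrl or Pre-T mouse ended the calls of Igfbp2 and Ghr in macrophage-like nuclei and of Ghr in fibroblast-like nuclei in Pre-T. Those fits leave 1 mouse in a group, but the call of Igfbp2 in fibroblast-like nuclei was kept in them. Why the other calls were lost was not tested. Fibroblast-like nuclei had 2 calls of 10 in Pre-T against Ctrl (4.12% of all genes), 1 in Post-T against Ctrl (3.41%) and 0 in Post-T against Pre-T (0.201%, with 3 at an unadjusted p under 0.05 and 0 by DESeq2), and Post-T 2 gave only 58 nuclei. Of all 18945 genes, 1951 had an unadjusted p under 0.05 in Post-T against Pre-T, and DESeq2 called 91 of 9395. With each nucleus named on its own, plain CPM of Ghr in fibroblast-like nuclei was 3184 and 2781 in Ctrl, 1558 and 1490 in Pre-T and 1398 and 2712 in Post-T, so that Post-T 2 came near Ctrl 2, and in macrophage-like nuclei Ghr was at 4535 and 4080, 823 and 894, and 796 and 992. These sums were not tested.

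**Figure D2:**
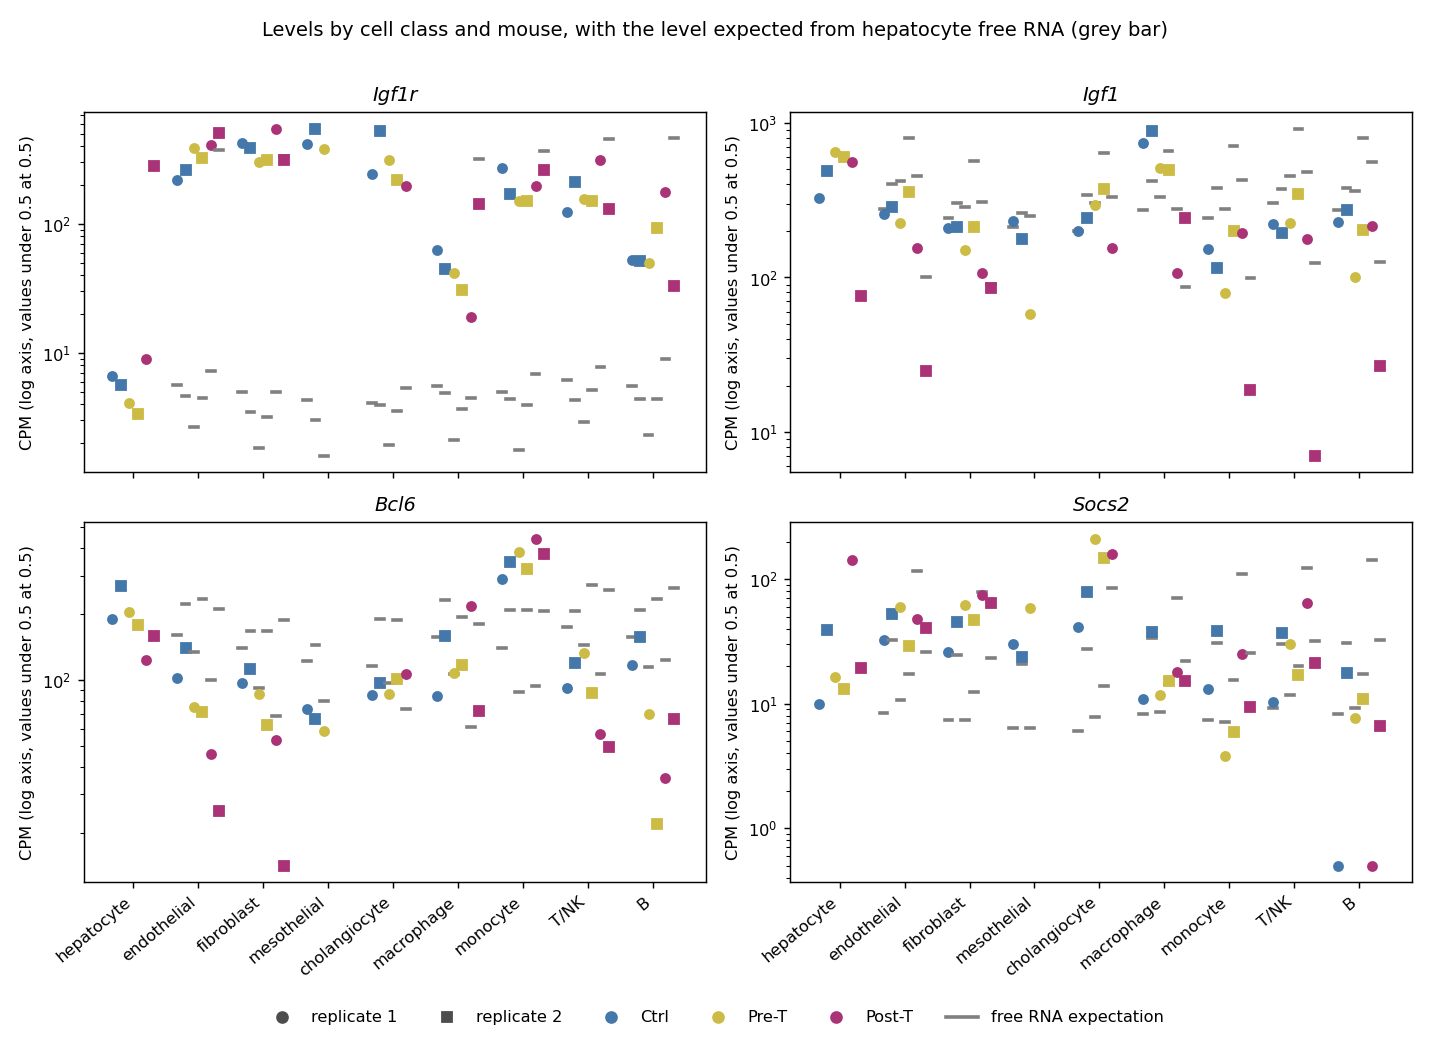
Plain CPM (log axis) of Igf1r, Igf1, Bcl6 and Socs2 in 9 cell classes, 1 point per mouse with at least 20 nuclei, and a grey bar at the level expected from hepatocyte free RNA in that mouse. Igf1r stands far above the bars in endothelial-like and fibroblast-like nuclei except in Post-T 2, and Bcl6 above them in monocyte-like nuclei of all 6 mice.

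The signalling genes stood above the free RNA level in some other classes. Bcl6 in monocyte-like nuclei was at 291 and 345 CPM in Ctrl, 386 and 322 in Pre-T and 443 and 379 in Post-T, or 1.55 to 4.71 times the free RNA level in all 6 mice. Cish in T/NK-like nuclei was at 4.08 and 56.2, 86.6 and 76.1, and 42.6 and 63.4 CPM, from 2 to 63 UMIs per mouse and 2.20 to 10.4 times that level, with Ctrl 1 far below the rest. Socs2 in cholangiocyte-like nuclei was at 41.1 and 78.4 CPM in Ctrl, 211 and 147 in Pre-T and 160 in Post-T 1 (24 to 78 UMIs), 1.88 to 27.3 times that level, so that both Ctrl mice lay below the 3 Western Diet mice. Stat5b lay near the free RNA level in most classes, with a median of 0.667 times in endothelial-like to 1.25 times in mesothelial-like nuclei, and at 2.15 to 4.16 times with the ratio of low-depth nuclei.

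Over all kept nuclei of a mouse, where fewer hepatocytes and less RNA per hepatocyte cannot be told apart, Igfbp2 was at 238 and 179 normalised CPM in Ctrl, 6.59 and 17.4 in Pre-T and 69.6 and 129 in Post-T. The order matched that in hepatocyte-like nuclei, with a log2 fold change of -4.12 ± 0.58 in Pre-T against Ctrl that did not pass (adjusted p = 0.0838). None of the 10 genes was called by edgeR in these sums (4, 2 and 3 at an unadjusted p under 0.05 in the order above), where 0, 2.22 and 0% of all genes were. An unadjusted p under 0.05 was found for 4291, 5667 and 5315 of all 21790 genes. DESeq2 was not run on these sums.

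Genes that growth hormone keeps male-biased in mouse liver had lower fitted levels in the Western Diet mice. Of 20 listed, 19 were found and tested in hepatocyte-like nuclei, and all 19 had a lower fitted level in Pre-T than in Ctrl, with a median log2 fold change of -2.48. None was called there by edgeR, while 13 had an unadjusted p under 0.05, beside 2765 of all 18357 genes. DESeq2 called 8 there, beside 921 of the 14442 genes it tested. In Post-T against Ctrl all 19 were again lower, with a median of -4.32. Of these 6 were called, beside 2.47% of all genes called lower: Hsd3b5, Elovl3, Mup21, Cyp2d9, Ugt2b1 and Cyp7b1. DESeq2 called 14 in this comparison, beside 15% of the genes it tested. In Post-T against Pre-T 13 of 19 were lower and 1, Ugt2b1, was called, beside 1.55% of all genes called lower. DESeq2 called 4, beside 15% of the genes it tested. The median there was -2.14, or -0.94 with the gene absent from a group set at its detection bound. Without any 1 of the Ctrl or Pre-T mice the median in Post-T against Ctrl stayed between -3.50 and -4.68. The calls moved with single mice, but those fits leave 1 mouse in a group, so their counts are not given.

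Hsd3b5, a steroid-reducing enzyme found in male liver, was at 113 and 61.3 normalised CPM in Ctrl, 0 and 0.695 in Pre-T and 0.841 and 0 in Post-T. It was at most 0.841 in the 4 Western Diet mice, and the counts of 0 allow up to 0.386 CPM in Pre-T 1 and 0.241 CPM in Post-T 2 (log2 fold change -7.66, adjusted p = 0.0291 in Post-T against Ctrl). Elovl3, a fatty acid elongase, was at 353 and 27.1 in Ctrl, 65.6 and 55.9 in Pre-T and 0.935 and 1.59 in Post-T, where Ctrl 2 lay below Pre-T. Cyp7b1, which hydroxylates oxysterols, was at 1209 and 3370, 442 and 666, and 343 and 234, and both fell in Post-T against Ctrl (-7.22 and -2.99, adjusted p = 0.0451 and 0.0472). Mup21, a major urinary protein, was at 196 and 87.9, 19.4 and 21.3, and 2.15 and 0.468, and Cyp2d9 at 588 and 362, 140 and 119, and 32.9 and 13.1, so in each the 3 groups were apart. Ugt2b1 was at 226 and 115, 56.5 and 52.3, and 11.4 and 9.82, and its log2 fold change was -4.00 in Post-T against Ctrl (adjusted p = 0.0132) and -2.36 in Post-T against Pre-T (adjusted p = 0.0419). Mup21, Cyp2d9 and Ugt2b1 have near-identical relatives, between which reads may be shared, so their single values are uncertain.

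Female-biased growth hormone targets had mostly higher fitted levels, with few calls. Of 20 listed, 17 were tested, and 15 had a higher fitted level in Pre-T than in Ctrl (median log2 fold change 1.26). There edgeR called 0, and DESeq2 called 3, beside 6.38% of the genes it tested. An unadjusted p under 0.05 was found for 5, beside 2765 of all 18357 genes. In Post-T 16 were higher than in Ctrl (median 3.12), and 1 was called, beside 1.89% of all genes called higher. The called gene was Trim24, a transcriptional cofactor, at 43.9 and 49.1 normalised CPM in Ctrl, 107 and 104 in Pre-T and 128 and 225 in Post-T (log2 fold change 1.92, adjusted p = 0.0324), with no overlap between the groups. In Post-T against Pre-T the median was 0.97 and 1 was called lower, Cyp2b13, beside 1.55% of all genes called lower. Cyp2b13 was named after its values were seen and was at most 6.36 normalised CPM in any mouse (-5.67, adjusted p = 0.0388). Many of the list were near 0: Sult1e1, an estrogen sulfotransferase, was at 0 and 0.672 in Ctrl, 13.7 and 51.6 in Pre-T and 100.5 and 1.12 in Post-T and was not called.

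**Figure D3:**
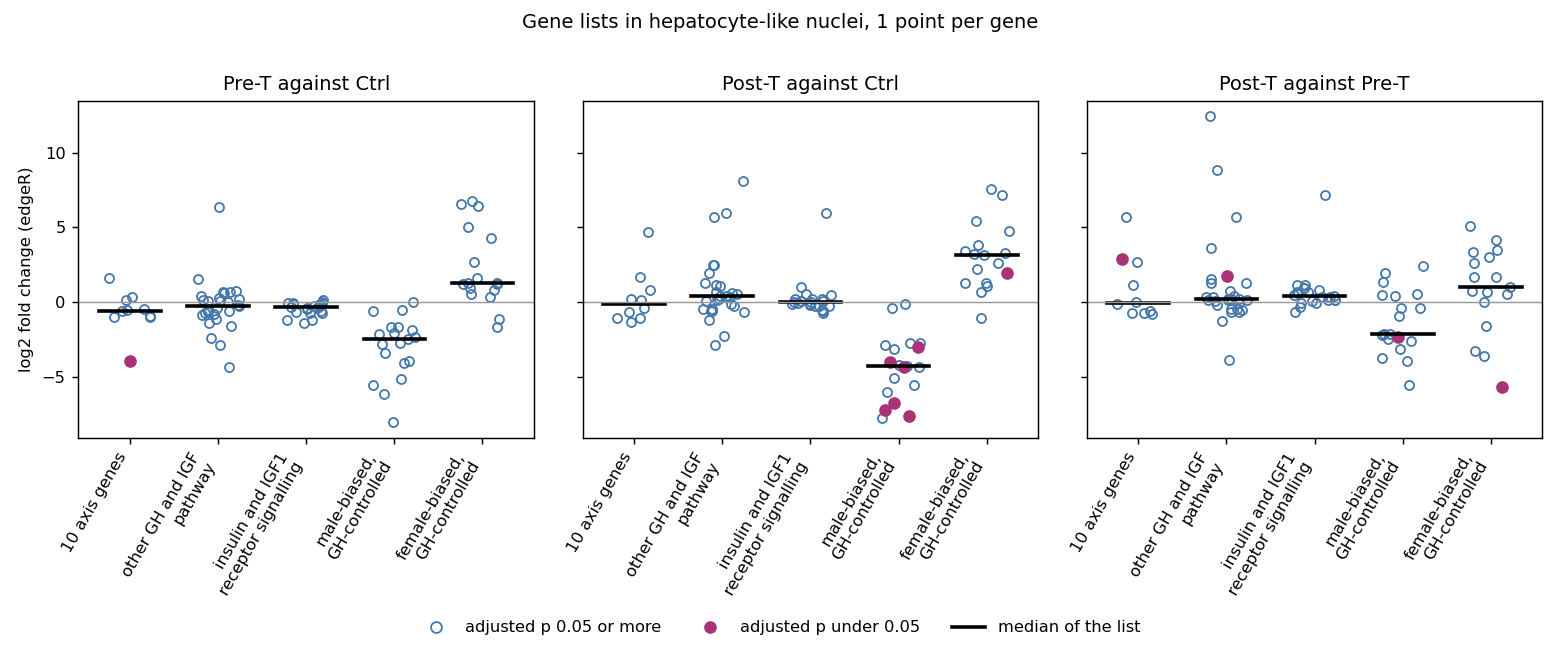
Log2 fold changes (edgeR) in hepatocyte-like nuclei for 5 gene lists in 3 comparisons, 1 point per gene, filled where the adjusted p was under 0.05, with a black line at the list's median. The male-biased list lies below 0 in both comparisons with Ctrl, with medians of -2.48 and -4.32, and the female-biased list mostly above.

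Of 31 further genes of the growth hormone and IGF pathway, 28 were tested in hepatocyte-like nuclei. In the order above, 4, 10 and 8 had an unadjusted p under 0.05, beside 2765, 4628 and 4395 of all 18357 genes. DESeq2 called 1, 3 and 3 of the list, beside 6.38, 15 and 15% of the genes it tested. Of the list edgeR called 0, 0 and 1, beside 0.0763, 4.36 and 2.41% of all genes. The 1 called was Socs3, a feedback inhibitor mainly of IL-6 signalling, named after its values were seen, at 7.32 and 7.17 normalised CPM in Ctrl, 4.58 and 4.59 in Pre-T and 13.5 and 17.1 in Post-T (log2 fold change in Post-T against Pre-T 1.74, adjusted p = 0.0467). No gene of the list was called with low-count genes kept, with the replicate block, with nuclei named on their own, over all kept nuclei, with low-depth or unnamed deep clusters added, with total UMIs or without any 1 of the Ctrl or Pre-T mice. The median of the list was -0.25 (0 with genes absent from a group set at their bound), 0.37 and 0.18. Igf2bp2, an RNA-binding protein named for Igf2, was seen at 41.6 and 41.3 in Pre-T, 0.848 and 0.149 in Ctrl and 5.70 and 0 in Post-T, and was not called (adjusted p = 0.194 in Pre-T against Ctrl). Jak2, the kinase bound to the receptor, stayed between 28.7 and 37.0 in all 6 mice.

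Among 22 genes of insulin and IGF1 receptor signalling, 21 were tested and edgeR called none in any comparison. An unadjusted p under 0.05 was found for 3, 3 and 8 of them, beside 2765, 4628 and 4395 of all 18357 genes. In Pre-T 20 of the 21 were lower than in Ctrl, with a median log2 fold change of -0.31, and the medians were -0.01 and 0.39 in the other comparisons. Scaling to total UMIs in place of TMM moved the median of all genes by a similar amount, to 0.31 in Pre-T against Ctrl and -0.31 in Post-T against Pre-T. Foxo1, the factor that insulin restrains at Igfbp1, was at 221 and 229 normalised CPM in Ctrl, 209 and 219 in Pre-T and 446 and 475 in Post-T (log2 fold change in Post-T against Ctrl 1.03, adjusted p = 0.0514), with both Post-T mice above the other 4.

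Within the hepatocyte-like nuclei of each mouse, nuclei with at least 5 UMIs of 20 zonal genes (1941 of 2551 in Post-T 1) were ordered by the pericentral share of those UMIs, and equal numbers of nuclei at each end (240 to 852 per mouse) were compared. Igf1 was higher at the periportal end in 6 of 6 mice, with a mean log2 ratio (pericentral over periportal) of -1.34 ± 0.80 (SD, n = 6 mice), and so were Cish (-0.73 ± 0.22, from only 6 to 48 UMIs per end and mouse) and Igfbp2 (-0.59 ± 0.33). Igfbp1 (0.52 ± 0.29) and Bcl6 (0.19 ± 0.14) were higher at the pericentral end in 6 of 6, though Bcl6 by only 0.0034 in Pre-T 1. Each of these 5 gave p = 0.0312 in the two-sided exact sign-flip permutation test, the smallest that 6 mice allow, and 0.0625 after adjustment over the 10 genes, so none passed. Ghr had no common direction (0.04 ± 0.24, higher at either end in 3 mice each, p = 0.75 in the same exact test).

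The ratio of Igf1 was -0.58 and -1.33 in Ctrl, -1.12 and -1.06 in Pre-T and -1.05 and -2.90 in Post-T. Post-T 2 stood apart here as well. The ends are ranges within a mouse and not the same zones across groups: the periportal range of Post-T 2 ended at a pericentral share of 0.926, above the start of the pericentral range of the Ctrl mice at 0.167, and held the pericentral gene Glul at 4730 CPM beside 8.20 and 5.59 in Ctrl. The periportal range of Post-T 1 ended at 0.792 and held Glul at 967 CPM. Both Post-T mice thus held more Glul at the periportal end than the Ctrl mice at the pericentral end (452 and 395 CPM). With the same nuclei split at the median in place of the ends, Igfbp2 was higher periportally in 5 of 6 mice and Bcl6 higher pericentrally in 5 of 6 (p = 0.0625 each, same exact test). With at least 10 zonal UMIs per nucleus in place of 5, Bcl6 was again higher pericentrally in 5 of 6 (p = 0.0625, same exact test).

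**Figure D4:**
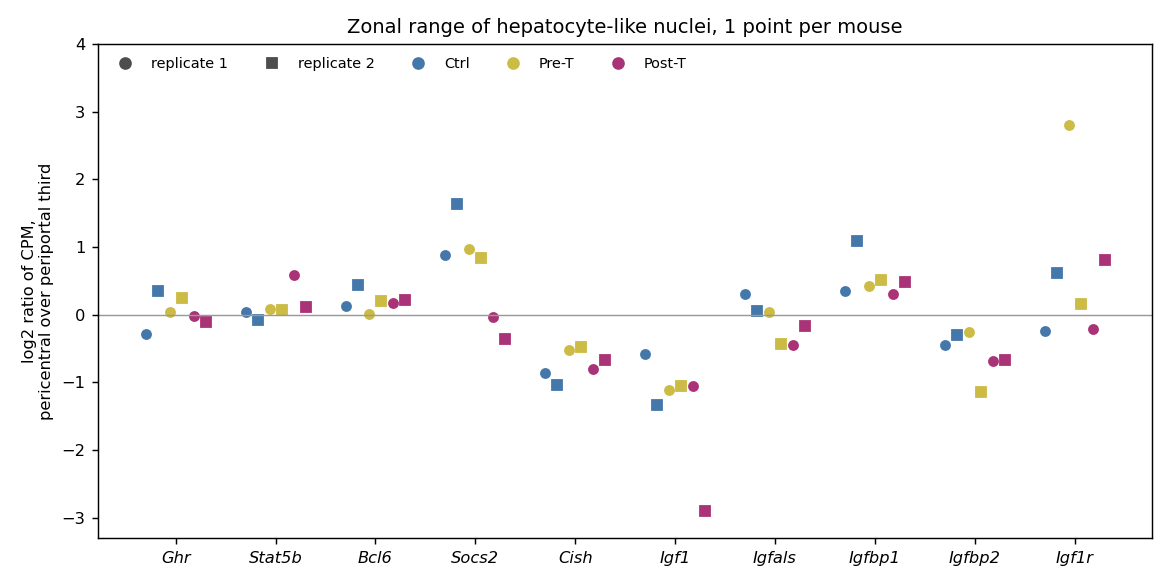
Log2 ratio of CPM between the pericentral and the periportal end of hepatocyte-like nuclei for the 10 genes, 1 point per mouse. All 6 mice lie below 0 for Igf1, Cish and Igfbp2 and above 0 for Igfbp1 and Bcl6, and Post-T 2 reaches -2.90 for Igf1.

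Over 55 sums of 1 class in 1 mouse (at least 50 nuclei each, sharing libraries, depth and free RNA), the genes whose log2(CPM + 1) ran closest to an axis gene were sought among 10632. Ghr ran with Errfi1 (Pearson r = 0.963), Slc22a30 (0.948) and Hnf4aos (0.940). Igfbp2 ran with Afm (0.866), Cyp2c23 (0.865) and Hsd17b6 (0.861), all made in hepatocytes. Igf1r was closest to Map4k4 (0.7995), Stat5b to Snd1 (0.822), Igf1 to Gm31508 (0.833), Igfbp1 to Ugdh (0.831) and Igfals to Lsr (0.776). Socs2 (Pawr, 0.701) and Cish (Serpinb9, 0.607) had the weakest best matches. These are descriptions over classes and mice that are not independent.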

How the data were processed

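Nuclei of 6 livers were profiled as 6 libraries. The authors aligned reads to mm10 with Cell Ranger 6.1.1 and deposited raw UMI counts per gene and barcode, the unit used here. Whether intronic reads were counted is not given in the sources used here. Nuclei with over 200 and under 5000 genes and under 5% mitochondrial counts were kept, as in the study. No doublet caller was run. Nuclei were clustered without integration (scanpy 1.11.5, Python 3.11.15, 30 components of 2000 variable genes, 15 neighbours, leidenalg 0.10.2 at resolution 1), leaving the 10 axis genes and the pathway and sex-biased lists out of the variable genes. A cluster took a class name from at least 3 raised markers. Clusters with hepatocyte markers at under 60% of their libraries' median depth were kept apart. Sums of UMIs over each class in each mouse went into edgeR 4.0.16 under R 4.3.3 (TMM, quasi-likelihood, 6 mice in 1 fit, genes with at least 10 counts in hepatocyte-like and 3 in other classes), with DESeq2 1.42.0 as the alternative. For the zonal comparison, nuclei with under 5 UMIs of the zonal genes were left out. P-values measure the spread between these mice.

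The axis genes, gene lists and markers were chosen with earlier results of these data known. Named genes were the 10 axis genes and, per list and comparison, up to 4 called genes of at least 10 CPM with the largest fold change. Cyp7b1, Cyp2b13, Sult1e1, Socs3, Igf2bp2, Jak2, Foxo1, Grb10 and H19, and Ugt2b1 in Post-T against Ctrl, fall outside that rule and were named after their values were seen. The edgeR step was tested on simulated data with 200 genes changed: for Pre-T against Ctrl it recovered 58% at a log2 fold change of 2 and 95% at 3, with 18 false calls among 18357 genes. Counting precision is set by the UMIs given beside low genes. Intervals and limits of a count of 0 (3 counts) cover counting error only. Alternatives were other size factors, filters, class definitions, a replicate block and leaving out each mouse. The closest match of Bcl6 is not reported here.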

Additional observations from a re-analysis of the deposited data

Results flagged for a closer look

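Only differences in direction between cell classes could be looked for, since groups of 2 mice are too small to test for a single outlying mouse. In 3 cases every mouse of a group lay on one side of Ctrl in one class and on the other side in another. These differences in direction were not tested, and values are log2 ratios of mean normalised CPM. Igf1 in Pre-T against Ctrl was 0.32 in hepatocyte-like and -0.79 in macrophage-like nuclei. With each nucleus named on its own, the macrophage-like CPM of Igf1 overlapped between Pre-T (633 and 632) and Ctrl (610 and 749). Igf1r in the same comparison was 0.36 in endothelial-like, -1.03 in hepatocyte-like, -0.60 in fibroblast-like and -0.70 in macrophage-like nuclei. With nuclei named on their own, its hepatocyte-like CPM overlapped between Pre-T (3.97 and 10.5) and Ctrl (11.6 and 7.82). Its endothelial-like, fibroblast-like and macrophage-like values did not overlap. Cish in Post-T against Ctrl was 0.79 in hepatocyte-like and -0.46 in endothelial-like nuclei, from 13 to 98 UMIs per mouse in these classes. With each nucleus named on its own, endothelial-like Cish overlapped as well, at 12.4 and 7.44 CPM in Post-T and 12.3 and 16.0 in Ctrl.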

How the results depend on the processing

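The counts of genes called in hepatocyte-like nuclei moved with most settings, given here in the order Pre-T with Ctrl, Post-T with Ctrl, Post-T with Pre-T. On all 6 mice they were 14, 801 and 443. They were 921, 2322 and 2222 with DESeq2, 1, 289 and 19 with each nucleus named on its own, and 0, 483 and 0 over all kept nuclei. Of settings chosen after seeing the data, counting low-depth clusters gave 8, 672 and 123, counting the unnamed deep clusters 0, 341 and 0, and scaling to total UMIs 28, 786 and 755. Leaving out 1 mouse gave 0 to 1310, 0 to 3085 and 0 to 3426. With the replicate number as a block the counts were 0, 403 and 28, and both Igfbp2 calls in hepatocyte-like nuclei were lost (adjusted p = 0.0736 and 0.0540), while in endothelial-like, fibroblast-like and macrophage-like nuclei the block added 1, 6 and 5 calls of axis genes and removed none. The numbers were not taken as pairs, since the correlations of same-numbered mice were -0.10, 0.12 and -0.14. The causes were not tested.

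Some log2 fold changes below the threshold changed sign. Stat5b in Post-T with Pre-T was 0.031 without the upper limit on genes, 0.39 over all kept nuclei, 0.12 with low-depth and 0.10 with unnamed deep clusters. It was -0.018 with nuclei named on their own and -0.17 over all kept nuclei in Pre-T with Ctrl, and -0.050 with nuclei named on their own in Post-T with Ctrl. Bcl6 in Post-T with Pre-T was 0.032, 0.29 and 0.021 with nuclei named on their own, over all kept nuclei and with low-depth clusters. Igf1 in Pre-T with Ctrl was -0.16 over all kept nuclei and -0.10 with the unnamed deep clusters. On leaving out 1 mouse, Pre-T with Ctrl ranged from -1.66 to 0.22 for Socs2 and -0.035 to 0.39 for Stat5b, and Post-T with Ctrl from -2.28 to 0.36 for Igf1, -0.18 to 2.89 for Socs2, -0.24 to 0.86 for Igfbp1 and -0.31 to 0.47 for Stat5b. Post-T with Pre-T ranged from -2.60 to 0.036 for Igf1, -0.47 to 0.30 for Stat5b and -0.44 to 0.17 for Bcl6.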
